A study of Mus musculus with 14 samples.

Results

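Surface adhesion markers that are used to tell small cell lung cancer cells of different states apart were followed in cultured mouse small cell lung cancer (mSCLC) cells. The set was 10 genes of the 32926 in the deposited count table, taken by symbol: Ncam1, Cadm1, L1cam, Epcam, Cd24a, Icam1, Vcam1, Cd44, Alcam and Cd9. Poly(A) RNA was sequenced in 14 libraries, in 3 Non-NE libraries, 3 NE (neuroendocrine) libraries, and 2 libraries each of NE cells after 0, 3, 7 and 21 days of YAP5SA, an activated form of the transcriptional co-activator YAP. All lines came from lung tumours of adult mice of mixed strain with the alleles CGRPCreER/+, Rbf/f, P53f/f and Ptenf/f, taken after an injection that the labels give as TM, and were grown in Hites medium. The YAP5SA lines also carried Rosa26rtTA and Tet-onYAP5SA, except that the label of day 0 replicate 1 lists neither. In the genotype field of the NE libraries, the Non-NE libraries and day 0 replicate 1 the P53 allele is written with a number that goes up from sample to sample, whereas the source text has P53f/f throughout. In these mice Cre is driven from the CGRP gene, so that recombination starts in pulmonary neuroendocrine cells. The labels do not say whether replicates of a group were separate lines or cultures, so the p-values measure the spread between these libraries, which may be technical. No uninduced library of days 3, 7 or 21 was analysed here, so time in culture and YAP5SA cannot be told apart.

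Cells of a tumour hold to each other, to matrix and to leukocytes through surface glycoproteins of a few families. Ncam1 (CD56), Cadm1 and L1cam are immunoglobulin-superfamily molecules that bind like molecules on neighbouring cells, are abundant on neurons and neuroendocrine cells, and CD56 is a diagnostic stain for human small cell lung cancer. Epcam is an epithelial adhesion protein that associates with claudin-7, Cd9 is a tetraspanin that gathers integrins and immunoglobulin-family partners in the membrane, and Cd24a is a small mucin-like protein on a glycolipid anchor. Icam1 and Vcam1 are the ligands of the leukocyte integrins LFA-1 and VLA-4, Cd44 is the receptor for hyaluronan, and Alcam binds itself and the T-cell protein CD6. In mouse models of small cell lung cancer, surface proteins of these families have been used to sort NE from non-NE tumour cells.

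Library totals ran from 6730816 to 10659524 counts, and levels are given as CPM, counts relative to library size with TMM factors. For a gene with no count in a group the limit is 3 counts, or 0.104 to 0.152 CPM by group; these limits cover counting error only. NE replicate 2 was contained in day 0 replicate 1: it had more counts in 0 of 32926 genes, its total was 85.7% of the other, and the difference between them was within sampling noise (chi-square per gene 1.03 over 11367 genes, against 2050 to 6780 for the other NE libraries). NE and day 0 are therefore not independent, and NE replicate 2 was left out of the fit of both sets of libraries; an alternative fit with all 14 libraries kept it. The Yap1 row, in which reads of the transgene may or may not be counted, had 206 ± 63.6 CPM in Non-NE and 13 ± 5.64 CPM in NE (SD, n = 3 each), and 7.5 ± 0.529, 1148 ± 120, 764 ± 41.8 and 213 ± 8.03 CPM on days 0, 3, 7 and 21 (SD, n = 2 each). The labels were compared with markers. The summed level of 12 neuroendocrine markers was 1.32 to 18.4 CPM in Non-NE against 3594 to 4741 CPM in NE, and 4743 to 4959, 2335 to 2691, 1151 to 1233 and 841 to 887 CPM on days 0, 3, 7 and 21. Non-NE replicate 2 was the library with 18.4 CPM. A list of 10 fibroblast markers moved with the Non-NE label, at 10688 to 23004 CPM in Non-NE against 3.19 to 7.24 CPM in NE, with only Tcf21 at 0 in Non-NE, and their part in the results below was not tested. On day 21 these 10 markers summed to 23.3 to 24.7 CPM. The sum of 10 endothelial markers was 2.64 to 4.14 CPM in Non-NE against 215 to 390 CPM in NE, and 367 to 380 CPM on day 0 and 120 to 146 CPM on day 21. Vwf held most of it in NE (324 CPM). Of the others, Cldn5 was at 0 in every group, and Pecam1 averaged 0.383 CPM in NE and 1.06 CPM on day 21. Over 1 CPM were 1 of the 10 markers in NE and 4 on day 21. Of 9 leukocyte markers the summed level was 6.45 to 11.1 CPM in Non-NE, 8.95 to 52.7 CPM in NE and 114 to 137 CPM on day 21, where Csf1r held most of it and Ptprc, which marks leukocytes, was at 0. In bulk RNA, a change in the share of cells with a gene and a change in its RNA per cell cannot be told apart.

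The first comparison asked which surface molecules distinguish the Non-NE from the NE lines. Epcam, L1cam, Cadm1 and Cd9 were lower in Non-NE, and Cd44, Vcam1 and Ncam1 were higher. The largest contrasts were near-complete: Epcam had 3 counts over all Non-NE libraries, and Cd44 and Vcam1 had 5 and 2 counts over all NE libraries. Cd24a, Icam1 and Alcam did not pass the test. Thus 3 of 10 genes rose and 4 fell at an adjusted p under 0.05 (edgeR quasi-likelihood F test over 12966 genes), where 42.8% of all tested genes passed, 20.0% upward and 22.8% downward. Epcam, L1cam, Cadm1, Cd44 and Vcam1 passed the filter on low counts only through the group where they are high. Their part of that count was partly set by the filter. The median log2 fold change was -0.18 for the 10 genes and -0.02 for all tested genes.

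**Figure D1:**
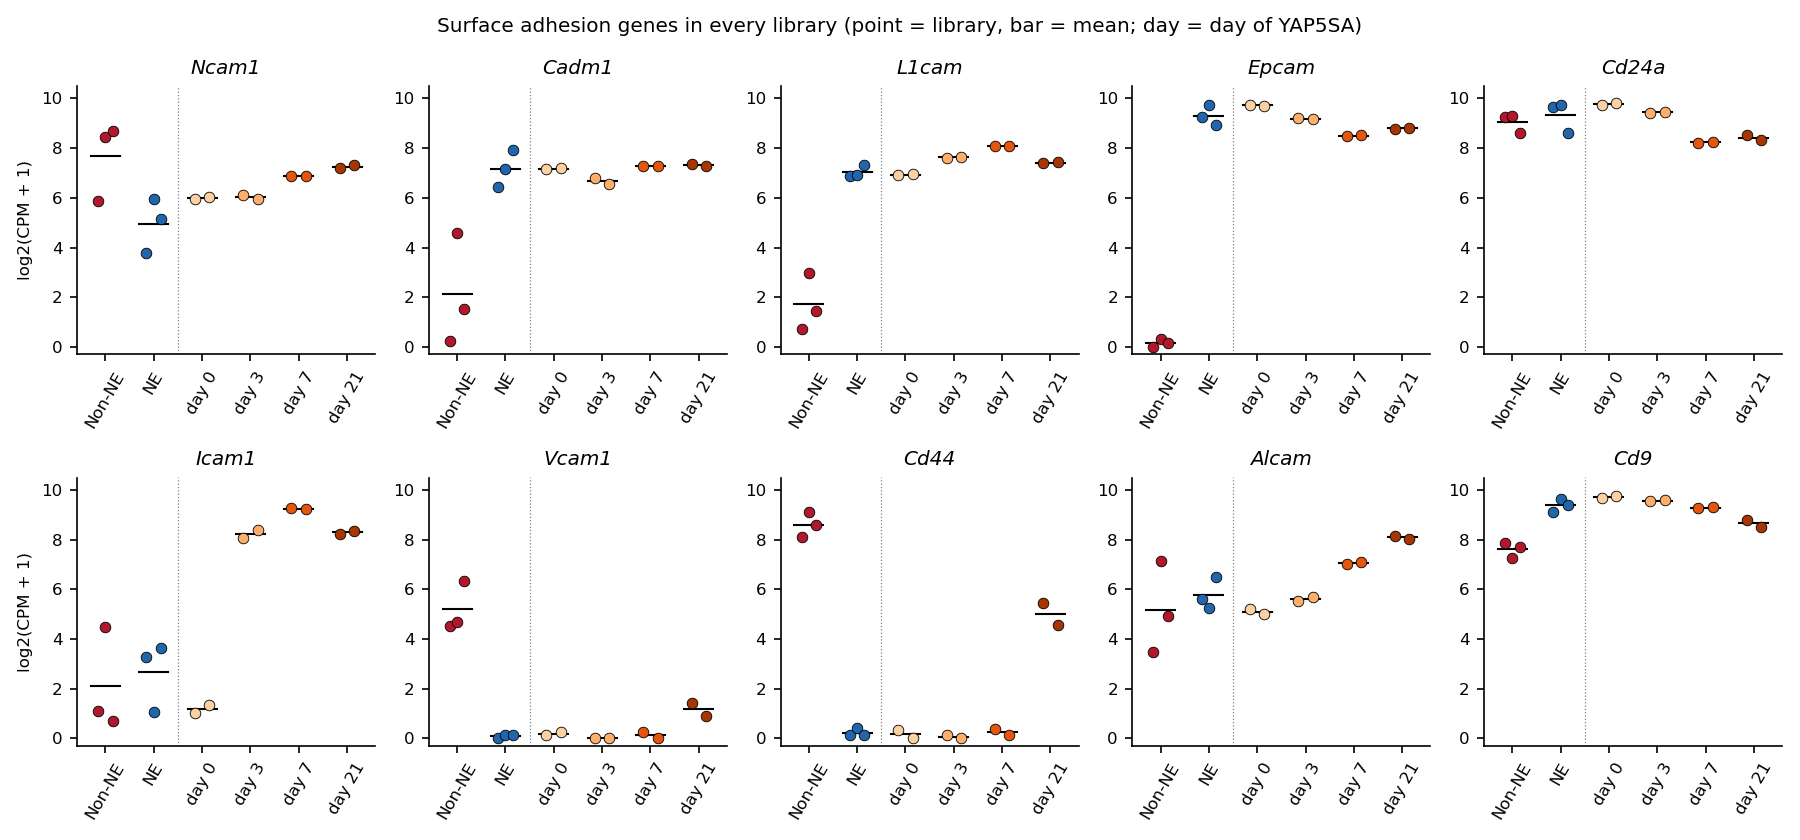
Level of each gene in each library, as log2(CPM + 1), with the group mean as a bar; the dotted line separates the Non-NE and NE libraries from the YAP5SA days. Epcam sits near 0 in the 3 Non-NE libraries and Cd44 and Vcam1 near 0 in the 3 NE libraries, while the points of Icam1, Alcam and Cd24a overlap between those groups.

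Among the neural immunoglobulin-family genes, Ncam1 went the opposite way to the others. Ncam1 had 57.7, 345 and 411 CPM in Non-NE, against 12.6, 60.8 and 34.8 CPM in NE. The lowest Non-NE library lay below the highest NE library, so the groups overlapped. That NE library was replicate 2, which shares reads with day 0 replicate 1, and NE replicates 1 and 3 lay below every Non-NE library. The mean was higher in Non-NE by 2.87 on the log2 scale (SE 0.84, adjusted p = 0.0319, edgeR). Leaving out NE replicate 1 or 3 or Non-NE replicate 2 or 3 ended that call, with adjusted p between 0.0715 and 0.0885. L1cam was at 0.661, 6.96 and 1.70 CPM in Non-NE, against 116, 121 and 158 CPM in NE. Every Non-NE library was far below every NE library, and the log2 fold change was -5.42 (SE 0.77, adjusted p = 0.00186, edgeR). Cadm1, which was first described in human lung cancer as a tumour suppressor, was at 0.165, 23.2 and 1.91 CPM in Non-NE, against 84.7, 141 and 243 CPM in NE. The groups did not overlap, and the log2 fold change was -4.24 (SE 1.29, adjusted p = 0.0361, edgeR). Without Non-NE replicate 2 it was -7.1, and leaving out any of the 3 NE libraries or Non-NE replicate 3 ended the call, with adjusted p between 0.0581 and 0.0923.

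The epithelial genes were split. Epcam was at 0, 0.244 and 0.106 CPM in Non-NE, against 605, 841 and 482 CPM in NE. The NE libraries held 18479 counts and the Non-NE libraries 3, a ratio of 5045 lower in Non-NE with a 95% counting interval of 1726 to 24464 (adjusted p = 2.83e-05, edgeR). Cd9 was at 233, 151 and 209 CPM in Non-NE, against 555, 802 and 674 CPM in NE. It stayed abundant in both groups without overlap, with a log2 fold change of -1.82 (SE 0.25, adjusted p = 0.00145, edgeR). Cd24a was at 604, 634 and 390 CPM in Non-NE, against 810, 852 and 393 CPM in NE. These ranges overlapped, and the log2 fold change of -0.38 had a 95% interval of -1.2 to 0.43 (adjusted p = 0.405, edgeR).

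Of the ligands and receptors for leukocytes and matrix, Cd44 and Vcam1 separated the groups. Cd44 was at 274, 557 and 385 CPM in Non-NE, against 0.0965, 0.328 and 0.106 CPM in NE. The log2 fold change was 11.03 (SE 0.54, adjusted p = 3.29e-05, edgeR), from 9850 counts in Non-NE and 5 in NE. Vcam1 was at 22.3, 24.8 and 80.7 CPM in Non-NE, against 0, 0.109 and 0.106 CPM in NE. This was 1098 counts against 2, a 670-fold ratio with a counting interval of 185 to 5542 (adjusted p = 0.000573, edgeR). Both genes are also expressed by cultured fibroblasts, whose markers were high in the same libraries. The part of such cells in these values, or in those of the other genes, was not tested. Icam1 was at 1.16, 21.4 and 0.637 CPM in Non-NE, against 8.69, 1.09 and 11.3 CPM in NE. Alcam was at 10.2, 140 and 29.3 CPM in Non-NE, against 47.8, 36.9 and 88.2 CPM in NE. For both, the Non-NE libraries spread more widely than the groups differed: the 95% interval of the log2 fold change was -3.13 to 3.32 for Icam1 and -2.06 to 2.09 for Alcam (adjusted p = 0.961 and 0.99, edgeR). Non-NE replicate 2 was the highest Non-NE library for Cadm1, L1cam, Icam1 and Alcam, while its Epcam was 0.244 CPM. Without it the log2 fold change was -3.01 for Icam1 and -1.56 for Alcam, still short of the threshold (adjusted p = 0.0855 and 0.0941, edgeR).

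The second comparison followed the same genes through 21 days of YAP5SA in NE cells. The genes followed different courses. Icam1 had risen by day 3 and was highest on day 7; Alcam and Ncam1 climbed to day 21, and L1cam was highest on day 7. Cd44 stayed at single counts through day 7 and was present in both libraries of day 21. Epcam and Cd24a were lowest on day 7, and Cd9 was lowest on day 21. Of the 9 genes tested (edgeR over 13996 genes), 3 rose and 3 fell on day 3 against day 0, where 48.6% of all genes passed, 26.2% upward and 22.4% downward. On day 7 against day 0, 4 rose and 3 fell, where 71.0% of all genes passed, 37.2% upward and 33.8% downward. On day 21 against day 0, 5 rose and 3 fell, where 71.7% passed, 37.7% upward and 34.0% downward. At these background shares the number of genes called is not itself a result. Between neighbouring days, 5 rose and 3 fell on day 7 against day 3 (55.6% of all genes passed, 29.5% upward and 26.1% downward), and 5 rose and 3 fell on day 21 against day 7 (50.3% passed, 26.1% upward and 24.2% downward).

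**Figure D2:**
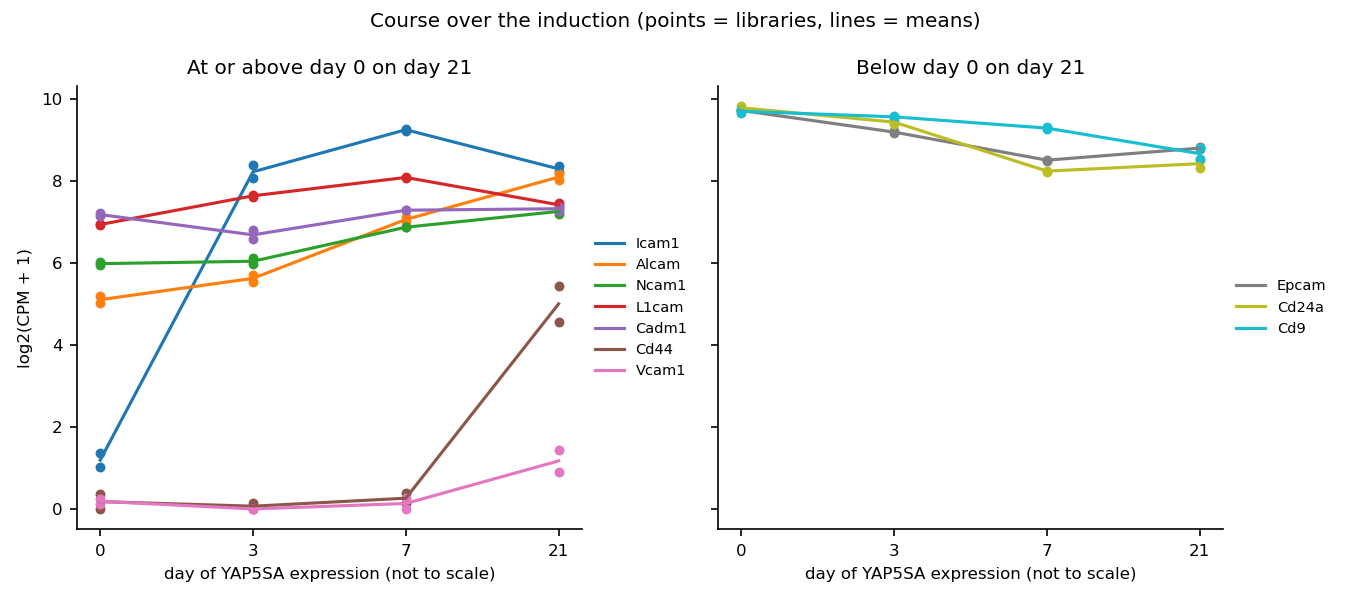
Level of each gene over the days of YAP5SA as log2(CPM + 1), with libraries as points and lines through the day means, for genes whose mean on day 21 was at or above that of day 0 (left) and below it (right). Icam1 leaves the floor by day 3 and peaks on day 7, whereas Cd44 leaves it only on day 21.

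Icam1 had the largest early change. It was at 1.03 and 1.57 CPM on day 0, 266 and 333 CPM on day 3, 619 and 596 CPM on day 7, and 299 and 327 CPM on day 21. No later library overlapped those of day 0, and days 3 and 21 overlapped each other. The log2 fold change against day 0 was 7.82 on day 3 (SE 0.17, adjusted p = 8.95e-22), 8.86 on day 7 (SE 0.16, adjusted p = 6.21e-24) and 7.92 on day 21 (SE 0.17, adjusted p = 4.87e-23; edgeR). On day 21 against day 7 Icam1 fell by 0.95 on the log2 scale. The promoter of this gene is shown because of that size. The 250 bases before the RefSeq start (GRCm38.p6, chr9:21015690-21015939, plus strand) read as follows, with capitals marking GGAAATTCC, the form of NF-kB site known from the human ICAM1 promoter, 153 bases before the start.
Icam1: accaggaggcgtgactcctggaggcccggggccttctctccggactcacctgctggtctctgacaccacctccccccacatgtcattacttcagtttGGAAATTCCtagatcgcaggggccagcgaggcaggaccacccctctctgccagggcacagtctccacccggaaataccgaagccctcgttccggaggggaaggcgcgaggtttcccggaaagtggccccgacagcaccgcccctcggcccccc
These 9 letters, searched on both strands, were added after the sequence had been read, and 0.286% of 32851 promoter windows of the same length hold them. The window held no TEAD motif (CATTCC, the family of factors that YAP binds, in 12.6% of all windows), no AP-1 motif (TGANTCA, 6.75%), no E-box CAGCTG (13.0%) and no match to the NF-kB consensus (9.55%). A match or its absence describes these letters only.

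Vcam1, the other leukocyte integrin ligand, stayed near the floor. It was at 0.0937 and 0.185 CPM on day 0, 0 and 0 CPM on day 3, 0.203 and 0 CPM on day 7, and 1.71 and 0.872 CPM on day 21. That is 27 counts on day 21 against 3 on day 0, a 9.28-fold ratio with a counting interval of 2.86 to 47.8. The low counts kept Vcam1 out of the test of the days, and with no count filter the log2 fold change was 3.12 (adjusted p = 0.000118, edgeR).

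Cd44 was at 0.281 and 0 CPM on day 0, 0.0972 and 0 CPM on day 3, 0.305 and 0.102 CPM on day 7, and 42.5 and 22.6 CPM on day 21. Days 0, 3 and 7 held 3, 1 and 4 counts and day 21 held 679. Day 21 was 233 times day 0 in pooled counts (counting interval 79.5 to 1135; log2 fold change 7.77, SE 0.59, adjusted p = 1.07e-07, edgeR) and 160 times day 7 (interval 62.4 to 590). Cd44 passed the count filter of this fit only through day 21, so its place among the genes that rose there was partly set by the filter. Relative to their mean, the day 21 libraries of Cd44 spread more than those of the other 8 genes above 10 CPM on that day. The 250 bases before the RefSeq start of Cd44 (GRCm38.p6, chr2:102901666-102901915, minus strand) are given as the late counterpart of the Icam1 window and held none of the motifs searched, so they carry no capitals.
Cd44: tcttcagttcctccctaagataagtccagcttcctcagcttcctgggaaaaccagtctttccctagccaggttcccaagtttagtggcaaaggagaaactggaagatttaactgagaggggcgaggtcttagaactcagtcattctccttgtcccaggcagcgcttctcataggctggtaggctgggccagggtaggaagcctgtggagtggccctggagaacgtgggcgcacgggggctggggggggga

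Alcam rose at each step, with 35.6 and 31.3 CPM on day 0, 45.5 and 51.3 CPM on day 3, 128 and 137 CPM on day 7, and 286 and 259 CPM on day 21. No libraries of different days overlapped. The log2 fold change against day 0 was 0.52 on day 3, 2 on day 7 and 3.05 on day 21 (SE 0.09, adjusted p = 5.26e-20, edgeR). Windows before the start were also available for Alcam, Epcam, L1cam and Cd9; none held the TEAD motif, and Cd9 held CAGCTG 25 bases before its start.

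Of the neural immunoglobulin-family genes, Ncam1 was at 60.9 and 63.6 CPM on day 0, 68.1 and 61.7 CPM on day 3, 116 and 116 CPM on day 7, and 146 and 158 CPM on day 21. Days 0 and 3 overlapped (adjusted p = 0.665, edgeR), and days 7 and 21 lay above them and apart from each other. The log2 fold change against day 0 was 0.91 on day 7 and 1.31 on day 21 (SE 0.08, adjusted p = 1.13e-13, edgeR). L1cam was at 120 and 123 CPM on day 0, 195 and 201 CPM on day 3, 270 and 271 CPM on day 7, and 166 and 174 CPM on day 21. It rose on days 3 and 7 (log2 0.7 and 1.17 against day 0) and fell by 0.66 on the log2 scale on day 21 against day 7, still above day 0 by 0.51 (adjusted p = 9.1e-07, edgeR). Cadm1 was at 141 and 147 CPM on day 0, 110 and 94.2 CPM on day 3, 155 and 155 CPM on day 7, and 164 and 154 CPM on day 21. It fell on day 3 (log2 -0.51, adjusted p = 8.71e-06, edgeR), and on day 21 differed from day 0 by 0.17 with an interval of 0 to 0.33 (adjusted p = 0.0616, edgeR).

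The epithelial genes fell without being lost. Epcam was at 847 and 835 CPM on day 0, 595 and 572 CPM on day 3, 360 and 365 CPM on day 7, and 439 and 450 CPM on day 21. Its log2 fold change against day 0 was -0.54, -1.2 and -0.9 on days 3, 7 and 21 (adjusted p = 3.42e-11 on day 21, edgeR), and it rose again on day 21 against day 7 (log2 0.3). Cd24a was at 855 and 905 CPM on day 0, 674 and 708 CPM on day 3, 298 and 304 CPM on day 7, and 365 and 320 CPM on day 21. It fell on each day against day 0, by 1.34 on the log2 scale on day 21 (SE 0.08, adjusted p = 8.59e-14, edgeR), and its small rise on day 21 against day 7 (log2 0.2, adjusted p = 0.0453) was lost when any library of day 0 or 7 or replicate 1 of day 21 was left out, with adjusted p between 0.0773 and 0.378 (edgeR). Cd9 was at 808 and 852 CPM on day 0, 741 and 770 CPM on day 3, 612 and 636 CPM on day 7, and 445 and 368 CPM on day 21. Each day's libraries lay below those of the day before it, but day 3 against day 0 did not pass (log2 -0.15, adjusted p = 0.159), whereas day 21 against day 0 did (log2 -1.01, adjusted p = 9.42e-11, edgeR).

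The third comparison set the end of the YAP5SA course against the Non-NE lines. On day 21 Epcam, L1cam, Cadm1 and Cd9 were above Non-NE, and Cd44 and Vcam1 were below it. Icam1 and Alcam were above every Non-NE and NE library. Day 21 was not tested against NE. By library, only Cadm1 lay within the NE range on day 21. Epcam, Cd9 and Cd24a lay below every NE library, and L1cam, Ncam1, Cd44 and Vcam1 above every one. Of 10 genes, 6 were higher and 2 lower on day 21 than in Non-NE (edgeR over 14820 genes in 13 libraries), where 55.3% of all genes passed, 30.8% upward and 24.5% downward. Epcam, with 3 counts in Non-NE, and Vcam1, with 27 on day 21, passed the count filter only through groups where they are high. Their part of that count was partly set by the filter. The labels do not say whether both sets of libraries were prepared together, so library set and state cannot be told apart here. Epcam averaged 444 ± 7.71 CPM on day 21 (n = 2) and 0.117 ± 0.122 CPM in Non-NE (SD, n = 3). L1cam averaged 170 ± 5.95 CPM on day 21 and 3.11 ± 3.38 CPM in Non-NE (log2 5.73), and Cadm1 159 ± 7.22 CPM on day 21 and 8.43 ± 12.8 CPM in Non-NE (log2 4.21). Cd44 averaged 32.5 ± 14.1 CPM on day 21 and 405 ± 143 CPM in Non-NE (log2 -3.64), and Vcam1 1.29 ± 0.596 CPM on day 21 and 42.6 ± 33.0 CPM in Non-NE (log2 -5.03). Icam1 averaged 313 ± 20.0 CPM on day 21 and 7.72 ± 11.8 CPM in Non-NE (log2 5.32, adjusted p = 0.00112, edgeR). Alcam averaged 273 ± 18.7 CPM on day 21 and 59.8 ± 70.0 CPM in Non-NE (log2 2.18, adjusted p = 0.0328), a call that was lost without Non-NE replicate 3 or either library of day 21, with adjusted p between 0.0877 and 0.108 (edgeR). Ncam1 averaged 152 ± 8.93 CPM on day 21 and 271 ± 188 CPM in Non-NE, and Cd24a 342 ± 31.6 CPM on day 21 and 543 ± 133 CPM in Non-NE; neither passed (adjusted p = 0.296 and 0.0741, edgeR).

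Whether the change under YAP5SA differed from the change between the states was tested as a difference, day 21 over day 0 minus Non-NE over NE, in the same 13 libraries. It was above 0 for Epcam, L1cam, Cadm1 and Icam1, by 11.01, 5.9, 4.4 and 8.24 on the log2 scale (adjusted p = 9.73e-08, 0.000306, 0.0388 and 0.00314, edgeR), where 32.8% of all genes passed, 21.2% upward and 11.6% downward. The remaining 6 genes did not pass; among them were Alcam at 3.21 (adjusted p = 0.0572), Cd24a at -1.21 (0.0516) and Vcam1 at -6.29 (0.0595; edgeR). For Ncam1 both changes were upward and for Cd9 both downward, and the tests do not show that they were equal. The call for Cadm1 is the weakest of the 4: it was lost when any library of the YAP5SA days, or NE replicate 3, was left out (adjusted p between 0.0657 and 0.137, edgeR).

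**Figure D3:**
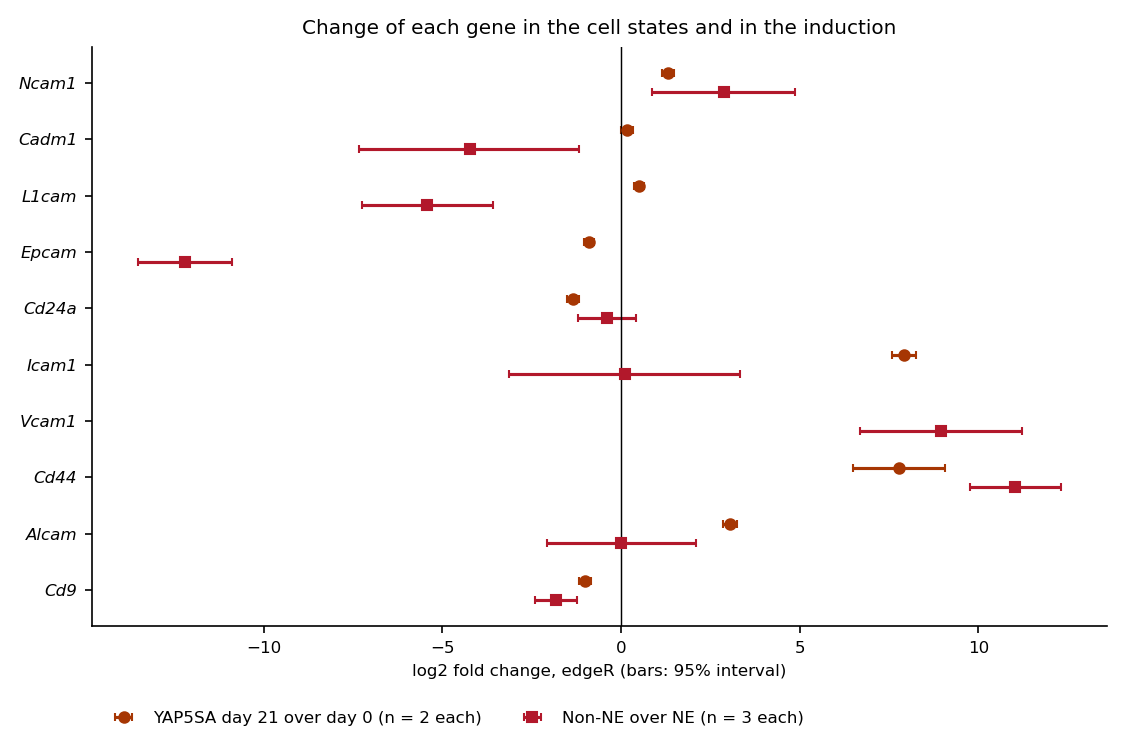
Log2 fold change of each gene on day 21 over day 0 (circles, n = 2 each) and in Non-NE over NE (squares, n = 3 each), with 95% intervals from edgeR; Vcam1 has no circle because the count filter kept it out of the test of the days. Epcam, L1cam and Cadm1 lie far left in Non-NE and near 0 on day 21, while Icam1 lies far right only on day 21.

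Day 0, of which replicate 1 is labelled without the transgene, was also set against NE without the library whose reads they share. No gene of the 10 passed (edgeR), where 6.26% of all genes passed, 3.31% upward and 2.95% downward. Of the 10, 2 had an unadjusted p under 0.05 (Epcam and Icam1). DESeq2 and limma-voom each called 1 of the 10, Epcam, among 1820 and 1270 calls over all genes. Epcam averaged 841 ± 8.78 CPM on day 0 and was at 605 and 482 CPM in NE replicates 1 and 3 (log2 0.63, adjusted p = 0.0892, edgeR). Icam1 was at 1.3 ± 0.383 CPM on day 0 and at 8.69 and 11.3 CPM in those NE libraries (log2 -2.92, adjusted p = 0.205, edgeR). The day 0 mean of Icam1 was the lowest of the 6 group means, but its libraries overlapped those of Non-NE. They overlapped NE only through NE replicate 2 (1.09 CPM), which shares reads with day 0 replicate 1, and lay below NE replicates 1 and 3.

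Per kilobase of exon, on which scale genes can be compared with each other, the order of the 10 changed with the state. Non-NE was led by Cd24a (210 CPM per kb), Cd9 (96.9), Cd44 (59.8) and Ncam1 (31.3), with Epcam last at 0.0533. NE was led by Cd9 (331 CPM per kb), Epcam (293) and Cd24a (266), with L1cam next at 18.0 and Vcam1 last at 0.00812. Ncam1 ranked 7 of 10 in NE, at 4.17 CPM per kb. On day 21 Epcam (202 CPM per kb) and Cd9 (199) led, Cd24a had 133, and Icam1 came next at 71.8. In the order of group means, several neighbours overlapped: for Cadm1, days 7 and 21 overlapped with NE, and for Alcam, day 3, NE, Non-NE and day 7 formed a run of overlapping neighbours, and day 21 lay above all other groups.

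Related genes put these 10 in context. In each list below, a gene near 0 in a compared group passed the count filter through other groups, which partly set its direction. Of 23 other neural immunoglobulin-family adhesion genes, 11 were tested in Non-NE against NE, and 1 rose and 10 fell, where 20.0% of all genes rose and 22.8% fell. Those near 0 in Non-NE, such as Nrcam and Nfasc, passed the count filter only through NE, which partly set their direction. The median log2 fold change was -9.25, or -6.22 with the 5 genes that had a group at 0 taken at their 3-count bound, beside -0.02 for all genes. Nrcam, a relative of L1cam, was at 0 CPM in Non-NE and 83.2 ± 20.7 CPM in NE, and Nfasc (neurofascin) at 0.117 ± 0.122 CPM in Non-NE and 200 ± 62.4 CPM in NE (SD, n = 3 each). On day 21 against day 0, 4 of 17 tested genes of that family rose and 11 fell, where 37.7% of all genes rose and 34.0% fell, with a median of -0.88 beside 0.02 for all genes. Cadm2, a paralog of Cadm1, fell to 3.65 ± 0.179 CPM on day 21, against 34.9 ± 1.96 CPM on day 0, and Cntn2 (contactin-2) rose to 34.3 ± 2.44 CPM on day 21, against 1.58 ± 0.644 CPM on day 0 (SD, n = 2 each). Ncam1 and L1cam thus rose on day 21 beside a family of which more tested members fell than rose. In the fit of all 14 libraries neither rise over day 0 was called (adjusted p = 0.23 for Ncam1 and 0.51 for L1cam, edgeR).

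Of 14 other adhesion ligands of leukocytes and endothelium in the table, 8 were tested on day 21 against day 0, and 6 rose and 1 fell (median log2 1.34; of all genes, 37.7% rose and 34.0% fell). Bcam, a laminin receptor, was at 612 ± 88.2 CPM on day 21 and 73.9 ± 0.272 CPM on day 0, and F11r (junctional adhesion molecule A) at 430 ± 10.3 CPM on day 21 and 173 ± 5.45 CPM on day 0. In Non-NE against NE, 1 of 7 rose and 3 fell (median -0.03; of all genes, 20.0% rose and 22.8% fell). Bcam was at 0.366 ± 0.634 CPM in Non-NE and 63.5 ± 11.4 CPM in NE, so this gene was high on day 21 and near the floor in Non-NE. Of 24 tetraspanins other than Cd9, 16 of 22 tested rose and 4 fell on day 21 against day 0 (median 1.25; of all genes, 37.7% rose and 34.0% fell). In Non-NE against NE, 5 of 17 rose and 5 fell (median 0.25), near the 20.0% and 22.8% of all genes. Cd81, which often sits in the same membrane domains as Cd9, was at 703 ± 12.7 CPM on day 21 and 107 ± 3.84 CPM on day 0, opposite to the fall of Cd9.

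Genes whose products bind or modify the 10 were taken as a list of 30. In Non-NE against NE, 4 of 21 tested rose and 7 fell (median log2 0.45), beside 20.0% and 22.8% of all genes. On day 21 against day 0, 14 of 24 rose and 6 fell (median 0.4), beside 37.7% and 34.0% of all genes. Msn (moesin), which links the tail of Cd44 to actin, was at 1884 ± 1163 CPM in Non-NE and 0.213 ± 0.369 CPM in NE. On days 0, 3, 7 and 21 Msn was at 0.0926, 49.6, 855 and 1096 CPM, so it was present by day 3 while Cd44 was at 1 count. Esrp1, a splicing factor that promotes the epithelial isoforms of Cd44, was at 0.167 ± 0.0451 CPM in Non-NE and 402 ± 55.1 CPM in NE, and at 281 ± 2.99 CPM on day 21 and 338 ± 4.92 CPM on day 0. The table counts genes, so Cd44 isoforms were not measured. Cldn7, which binds Epcam, was at 0.218 ± 0.248 CPM in Non-NE and 110 ± 13.1 CPM in NE, but on day 21 against day 0 it did not pass (138 ± 0.552 CPM on day 21 and 126 ± 3.87 CPM on day 0, adjusted p = 0.0785, edgeR). St8sia4, which adds polysialic acid to Ncam1, was at 0.382 ± 0.417 CPM in Non-NE and 23.2 ± 7.39 CPM in NE, and fell to 5.34 ± 1.08 CPM on day 21, against 25.9 ± 0.49 CPM on day 0. St8sia2, the other such enzyme, rose to 80.6 ± 3.2 CPM on day 21, against 44.5 ± 4.8 CPM on day 0, and had 65.7 ± 93 CPM in Non-NE and 22.9 ± 18.3 CPM in NE (adjusted p = 0.395, edgeR). Siglecg, a receptor for Cd24a in mice, had 0 counts on day 0 and averaged 110 ± 12.9 CPM on day 21. Of the receptors of the other ligands, Itgal, Itgb2, Itgam and Cd6 were each at or below 0.763 CPM in every group. Of the VLA-4 chains that bind Vcam1, Itga4 averaged 0.122 ± 0.211 CPM in Non-NE and 6.52 ± 9.33 CPM in NE, and Itgb1, which pairs with many other chains, 2041 ± 854 CPM in Non-NE and 603 ± 91.4 CPM in NE.

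**Figure D4:**
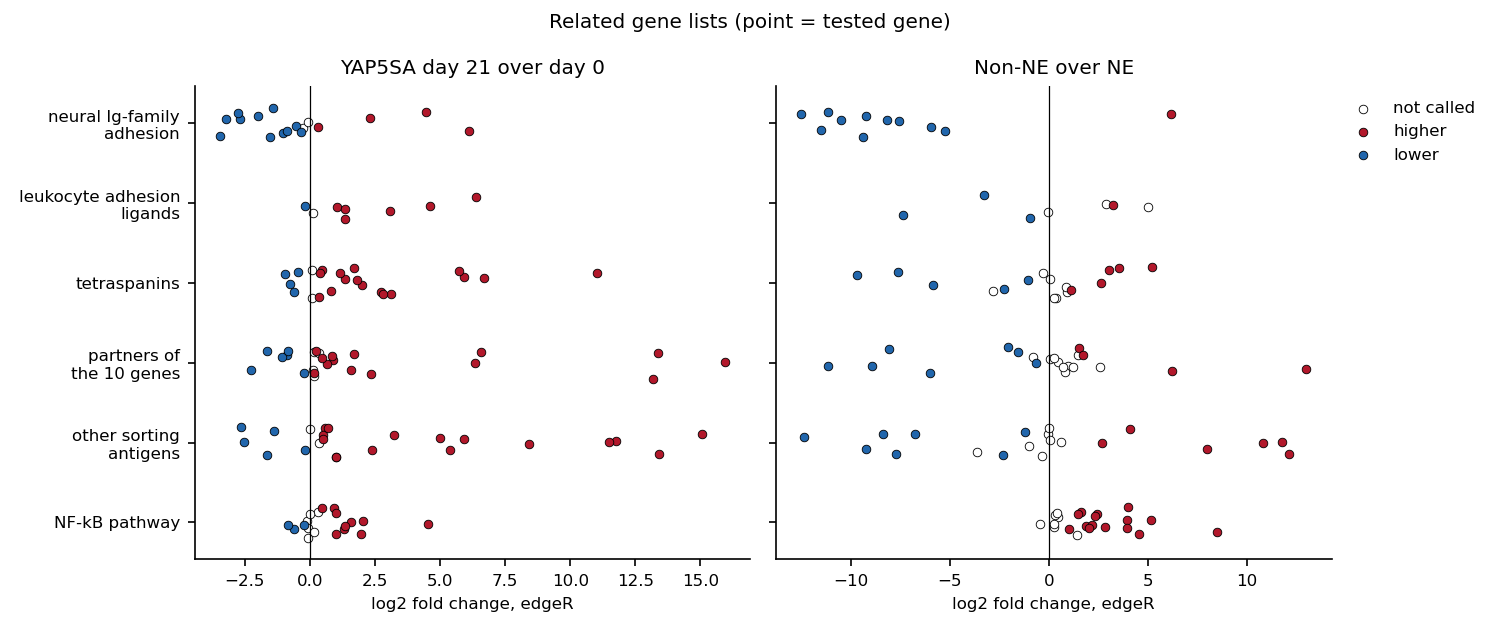
Log2 fold change of every tested gene of 6 lists on day 21 over day 0 (left) and in Non-NE over NE (right), with filled points for genes at an adjusted p under 0.05 (red higher, blue lower). In Non-NE, 10 of 11 neural immunoglobulin-family genes lie left of 0 and are called lower, beside 22.8% of all tested genes. Of these 11, 5 had a group at 0 and passed the count filter only through the other group, which partly set their side. On day 21, 16 of 22 tetraspanins are called higher, beside 37.7% of all tested genes.

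Icam1 is a known target of NF-kB, and 22 genes of that pathway are given beside it; the part of the pathway in the change of Icam1 was not tested. In Non-NE against NE, 15 of 22 rose and 0 fell (median log2 1.94), where 20.0% of all genes rose. Traf1, Rel and Il1r1 had 1, 14 and 19 counts over the NE libraries. They passed the count filter only through Non-NE, which partly set their direction. On day 3 against day 0, 5 of 19 tested pathway genes rose and 2 fell (median 0.05 beside 0.01 for all genes), near the 26.2% of all genes that rose. Of the called genes with at least 10 CPM, Nfkbia and Nfkb1 changed most. Nfkbia fell (log2 -0.71, adjusted p = 2.18e-07), and Nfkb1 rose (log2 0.47, adjusted p = 0.00121, edgeR). On day 21 against day 0, 10 rose and 3 fell (median 0.45; of all genes, 37.7% rose and 34.0% fell), among them Tnfaip3 at 85.8 ± 5.43 CPM on day 21 and 21.4 ± 0.86 CPM on day 0. Other antigens used for sorting also differed: Kit was at 0 CPM in Non-NE and 76.1 ± 20.5 CPM in NE, and Cdh1 (E-cadherin) at 4.92 ± 3.79 CPM in Non-NE and 1057 ± 267 CPM in NE. Over the list of 25, 6 of 20 tested rose and 7 fell in Non-NE against NE (median -0.2), beside 20.0% and 22.8% of all genes, and 16 of 23 rose and 5 fell on day 21 against day 0 (median 0.99), beside 37.7% and 34.0%. Of the 23, 4 had a group at 0, among them Mpzl2, Mme and Ly6a on day 0. These, and Pdpn with 5 counts on day 0, passed the count filter only through later days, which partly set their direction. With the 4 taken at their 3-count bound the median was also 0.99. Pdpn (podoplanin) was at 699 ± 49.3 CPM on day 21 and 0.233 ± 0.068 CPM on day 0, and Mpzl2 at 409 ± 22.4 CPM on day 21 and 0 CPM on day 0.

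Across the 13 libraries without NE replicate 2, the levels of Epcam, L1cam and Cadm1, as log2(CPM + 1), went together (Pearson r 0.959 for Epcam with L1cam, 0.959 for L1cam with Cadm1 and 0.908 for Epcam with Cadm1), and those of Cd44 and Vcam1 did so as well (0.933). The libraries fall into 6 groups, so the values describe mainly differences between groups. Among 11602 genes the nearest to Epcam were Hook1 (0.998), Gm2694 (0.998) and Dsp (0.997), with 1097 genes above 0.9, and the nearest to Vcam1 were Il18rap (0.997), Ifi204 (0.997) and Sod3 (0.993), with 568 above 0.9. L1cam was nearest to Myo5b (0.997), Ctnnd2 (0.997) and Map3k9 (0.996), Cadm1 to Mbp (0.982), Ptprn (0.98) and Jazf1 (0.976), Cd44 to Pla2g4a (0.995), F2r (0.993) and Abtb2 (0.991), and Cd9 to Stard7 (0.988) and Camk2n2 (0.986). The other genes had rarer patterns. Alcam had 4 genes above 0.9, led by Plekhg1 (0.966), Mpzl3 (0.919) and Pkp2 (0.906), and Cd24a had 8, led by 1200014J11Rik (0.948), Dpy30 (0.947) and Cdkn2aip (0.93). Ncam1 had 25, led by Klhl22 (0.953), H6pd (0.948) and Fam118b (0.931), and Icam1 had 112, led by 2310007B03Rik (0.968), Lims2 (0.964) and Osbpl7 (0.963).

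In the GENCODE M21 annotation of GRCm38 (mm10), Ncam1 lies on the minus strand of chromosome 9 (49502136 to 49798925) and Cadm1 on its plus strand (47530173 to 47857637), as does Icam1 (21015985 to 21028817). L1cam lies on chromosome X (73853778 to 73896105, minus), Epcam on chromosome 17 (87635979 to 87651129, plus), Cd24a on chromosome 10 (43578284 to 43584265, plus) and Vcam1 on chromosome 3 (116109949 to 116129688, minus). Cd44 lies on chromosome 2 (102811141 to 102901665, minus), Alcam on chromosome 16 (52248996 to 52454074, minus) and Cd9 on chromosome 6 (125460266 to 125494791, minus). Exons of 5 of the genes overlap another gene: Ncam1 shares 417 bases with the antisense gene Gm11149, L1cam 100 with Arhgap4 on the same strand, Icam1 511 with the antisense Gm47079, Vcam1 61 with the antisense Gm43109, and Cd9 218 with Gm26728 on the opposite strand. Whether counting used strand is not given in the sources used here, so reads of overlapping genes cannot be told apart.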

How the data were processed

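Poly(A) RNA of 14 libraries was sequenced. The submitters' processing notes name STAR 2.4.2, mm10 and featureCounts; no version of featureCounts and no gene annotation was found in those notes or the labels. As deposited by the authors, the table holds raw counts of 32926 genes, and every column was used. Symbols were matched to GENCODE M21 (30152, 91.6%) for coordinates and exon lengths, and promoters were taken from RefSeq (6 of 10 genes matched). CPM values used TMM factors over all 14 libraries. Differences were tested in edgeR 4.0.16 under R 4.3.3 by its quasi-likelihood F test with robust settings (TMM, filterByExpr, Benjamini-Hochberg over all tested genes, calls at 0.05) in 3 fits: 6 NE and Non-NE libraries (12966 genes, biological coefficient of variation 0.399), 8 YAP5SA libraries (13996 genes, 0.0548) and 13 libraries of both (14820 genes, 0.266). The fits were tested on simulated data. Ratios with few counts are pooled counts with 95% exact intervals. Alternatives used DESeq2 1.42.0 and limma 3.58.1. All 10 genes were named in each comparison. From each list the called genes with the largest change and at least 10 CPM in the higher group were the examples, and some list members were named for their known link to the 10 genes after values were seen. The 3 genes most alike each gene were named by Pearson r. Some genes that these rules took are not reported here. The genes and lists were chosen with earlier results of these data known.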

Additional observations from a re-analysis of the deposited data

Results flagged for a closer look

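For 4 genes, levels changed differently in the YAP5SA course than between the states, by the test of the difference itself (day 21 over day 0 minus Non-NE over NE, edgeR over 13 libraries). Epcam differed by 11.01 on the log2 scale (adjusted p = 9.73e-08): it was at 444 ± 7.71 CPM on day 21 and 841 ± 8.78 CPM on day 0, and at 0.117 ± 0.122 CPM in Non-NE and 643 ± 182 CPM in NE. L1cam differed by 5.9 (adjusted p = 0.000306), with 170 ± 5.95 CPM on day 21 and 121 ± 2.52 CPM on day 0, and 3.11 ± 3.38 CPM in Non-NE and 132 ± 23.0 CPM in NE. Cadm1 differed by 4.4 (adjusted p = 0.0388), with 159 ± 7.22 CPM on day 21 and 144 ± 4.23 CPM on day 0, and 8.43 ± 12.8 CPM in Non-NE and 157 ± 80.5 CPM in NE. Icam1 differed by 8.24 (adjusted p = 0.00314), with 313 ± 20.0 CPM on day 21 and 1.3 ± 0.383 CPM on day 0, and 7.72 ± 11.8 CPM in Non-NE and 7.02 ± 5.3 CPM in NE. Errors are SDs over 2 libraries a day and 3 a state; the NE means include NE replicate 2, which the test left out, and without it Icam1 was at 8.69 and 11.3 CPM in NE. The 2 changes were measured in different sets of libraries, and whether the sets were prepared alike is not given in the labels.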

How the results depend on the processing

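Over 1575 values of single genes under the alternatives, 1450 stayed on the same side of the threshold, 88 lost their call, 37 gained one and 0 reversed a call. Values that were not called could change sign. In Non-NE against NE the log2 fold change of Icam1 (0.1) ran from -3.01 to 0.66, and that of Alcam (0.01) from -1.56 to 0.52. At a 2-fold threshold, 1 gene was called on day 3 against day 0, 5 on day 21 against day 0, 2 on day 7 against day 3 and 1 on day 21 against day 7 (all genes: 1035, 3355, 1312 and 879, beside 6804, 10032, 7785 and 7042). All-gene counts at that threshold were 3057 for Non-NE against NE (beside 5554), 3242 for day 7 against day 0 (beside 9932), 3949 for day 21 against Non-NE (beside 8201), 197 for day 0 against NE (beside 928) and 2297 for the difference (beside 4864). With all 14 libraries in 1 fit, the spread is that of both sets. There 1, 3 and 6 genes were called on days 3, 7 and 21 against day 0 (all genes: 1041, 4589 and 4586). In that fit 1 was called on day 7 against day 3 and 1 on day 21 against day 7 (all genes: 1281 and 515). All-gene counts in it were 8997 for Non-NE against NE and 0 for day 0 against NE. For day 0 against NE, 0 genes became 1 with DESeq2 and 1 with limma-voom, and 0 to 2 without 1 library each (all genes: 1820 with DESeq2, 140 to 2193 without 1 library; the 2 genes came without NE replicate 1, Non-NE replicate 1 or Non-NE replicate 2). For the difference of changes, 4 genes became 8 with DESeq2, 7 with the replicate block and 3 to 7 without 1 library each (7 without Non-NE replicate 1). Without 1 library each, the counts ran from 5 to 7 for Non-NE against NE, 6 to 6, 7 to 7 and 8 to 10 on days 3, 7 and 21 against day 0, 7 to 8 for day 7 against day 3, 7 to 9 for day 21 against day 7 and 7 to 9 for day 21 against Non-NE. The cause was not tested. Same-numbered NE and Non-NE libraries did not deviate together (correlations 0.05, -0.01 and 0.04). With 3 libraries a state, this check cannot decide whether the replicate numbers pair them. Scaled by library totals only, calls higher made up 33.9% of calls in Non-NE against NE beside 46.7%, 40.4% beside 52.4% on day 7 against day 0, 38.2% beside 53.0% on day 7 against day 3 and 75.0% beside 64.7% for the difference; the median log2 fold change of all genes shifted by -0.26, -0.2, -0.14 and 0.17. Depth allows no statement on levels below 0.104 to 0.152 CPM a group, which bears on Vcam1 and Cd44 before day 21.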
